A study of Mus musculus with 3 samples.

Results

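Of the accessible regions found in the dentate gyrus of all 3 mice, 782 stood alone, with no other such region within 150 kb on either side. They were chosen by position among the regions shared by the peak lists of the 3 animals. An overlap of at least 1 bp merged peaks of different animals into a region, and an autosomal region was called shared when it held a peak of every animal. There were 35482 shared autosomal regions among 84529 joined regions in all. The 38 shared regions that came first or last on a chromosome were set aside, which left 35444, and the isolated regions were 2.21% of these. The remaining 34662 are the other shared regions below. The choice used where shared regions lay, so their number and their distances are a description and were not tested. The rule did not use peak width or score.

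The material was the microdissected dentate gyrus of adult C57BL/6 mice aged 8 weeks. ATAC-seq was done on 1 mouse per library, and the 3 libraries form the single group E24, a label that is not spelled out. The study asks how neuronal activation changes accessibility in this tissue, and no second condition was analysed here. The libraries are whole tissue, so a region open in a few cells and one weakly open in many cannot be told apart. Genes were not assigned to regions, because the gene and promoter tables used here are on GRCm38 while the peaks are on mm9. The tissue label was therefore not checked against marker genes, and no sequence of a region is printed.

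ATAC-seq reads out where the transposase Tn5 can cut, which in nuclei is mostly at promoters, enhancers and insulators, where regulatory proteins keep nucleosomes away. Mammalian chromosomes alternate between gene-rich stretches with closely spaced open elements and long gene-poor stretches with few, much of which lies at the nuclear lamina in compact chromatin. Single open elements inside such stretches can be distant enhancers of developmental or neuronal genes, binding sites of the insulator protein CTCF, or lone promoters, and repeated sequence can also give peaks there. In granule neurons, the main neurons of the dentate gyrus, many activity-regulated enhancers lie far from promoters.

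Isolated regions had lower score ranks than the other shared regions in each of the 3 animals, by a small margin. The deposited score has no stated unit and depends on depth, so the highest peak of an animal in a region was ranked within that animal's own list, from 0 for the lowest to 100 for the highest. The median percentile of the isolated regions was 64.3 in replicate 1, 66.7 in replicate 2 and 59.2 in replicate 3. The medians of the other shared regions were 70.0, 72.4 and 61.4. The difference was -5.65, -5.74 and -2.21 percentile points in replicates 1, 2 and 3, with a mean of -4.54 ± 2.01 (SD, n = 3). All 3 animals showed the same direction, and the two-sided exact sign-flip permutation test over animals gave p = 0.25, the smallest p that 3 animals allow. The ranges overlapped almost entirely: the 10th to 90th percentiles of the isolated regions in replicate 1 were 25.4 to 91.1, against 29.5 to 94.1 for the other shared regions.

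The isolated regions were fewer among the strongest peaks of each list. In replicate 1, 90 isolated regions (11.5%) were in the highest-scoring 10% of peaks, against 16.9% of all eligible shared regions. In replicate 2 there were 113 (14.5%) against 18.5%, and in replicate 3 there were 71 (9.08%) against 13.1%. In all 3 lists at once, 56 isolated regions (7.16%) reached the highest-scoring 10%, against 11.6% of all eligible shared regions. The lowest-scoring 10% of at least 1 list held 85 isolated regions (10.9%), against 7.90%. By list, it held 21 (2.69%) against 2.33% in replicate 1, 15 (1.92%) against 1.66% in replicate 2 and 55 (7.03%) against 4.76% in replicate 3. The upper 50% of every list held 378 isolated regions (48.3%), against 54.8%, and the lower 50% of every list held 125 (16.0%), against 12.3%.

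Peaks of isolated regions were also narrower in each animal. Their median width was 523 bp in replicate 1, 524.5 bp in replicate 2 and 367.5 bp in replicate 3, against 603, 626 and 397 bp in the other shared regions. The ratio was 0.867, 0.838 and 0.926, with a mean of 0.877 ± 0.045 (SD, n = 3), and the exact sign-flip permutation test on the log2 ratio gave p = 0.25, again the smallest possible. High scores and wide peaks go together in these lists, so the ratio was also taken within steps of 10 percentile points of score, where it was 0.925 ± 0.025 (SD, n = 3), moved towards equal width. The joined isolated regions had a median width of 599.5 bp, with 80% of them between 438 and 1095 bp, against 695 bp for the other shared regions. Only 8 isolated regions (1.02%) spanned more than 2 kb, against 2.91% of the other shared regions.

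**Figure D1:**
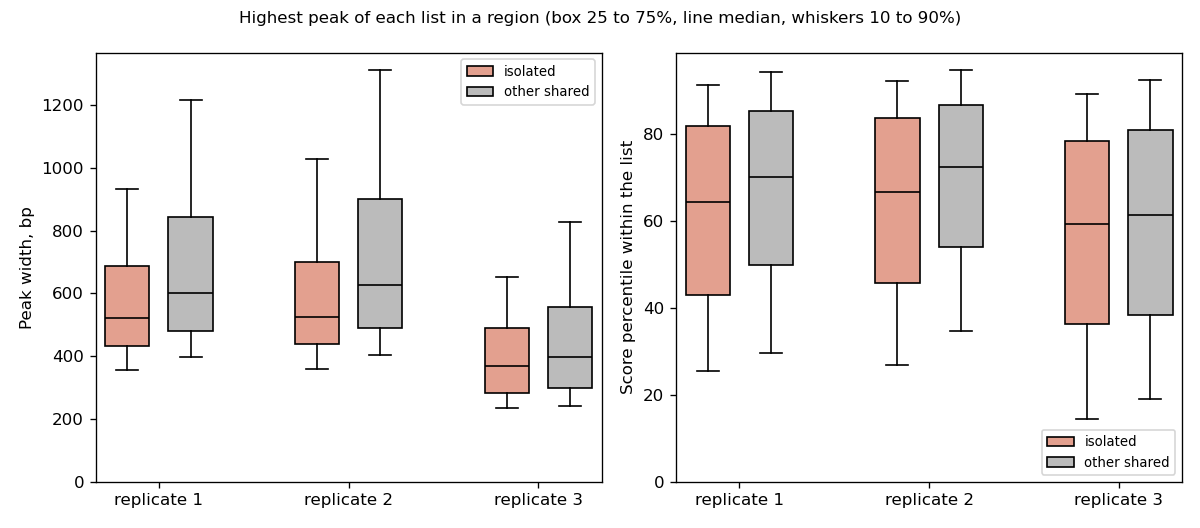
Peak width in bp (left) and score percentile within the list (right) of the highest peak of each animal in isolated regions (red) and other shared regions (grey), with boxes from the 25th to the 75th percentile, a line at the median and whiskers from the 10th to the 90th percentile. In every animal the red median lies below the grey one, from 367.5 against 397 bp in replicate 3 to 524.5 against 626 bp in replicate 2, and the boxes overlap widely.

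In 755 of the 782 isolated regions (96.5%), every animal had exactly 1 peak, a share near the 94.4% of the other shared regions. Replicate 3 had more than 1 peak in 24 isolated regions, replicate 1 in 4 and replicate 2 in 1. The stretch covered by the highest peak of all 3 animals had a median of 337 bp, or 56.9% of the joined region, close to the 55.4% of the other shared regions.

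Score rank did not fall evenly with distance. The median percentile, averaged over the 3 animals, was 60.3 ± 6.2 (SD, n = 3) for the 5297 shared regions with another one closer than 5 kb. It was 70.0 ± 5.7 at 20 to 50 kb, 70.2 ± 5.2 at 50 to 100 kb and 66.9 ± 5.0 at 100 to 150 kb. Among isolated regions it was 65.5 ± 3.5 for the 393 whose nearer shared region lay at 150 to 200 kb, 61.9 ± 5.3 for the 262 at 200 to 300 kb and 61.1 ± 1.9 for the 127 beyond 300 kb. In replicates 1 and 2 each of these steps among isolated regions went down, while in replicate 3 the medians were 61.7, 56.1 and 59.0. On this average the very close regions had ranks as low as the most distant ones, but the animals differed. Closer than 5 kb the medians were 62.3, 65.2 and 53.4 in replicates 1, 2 and 3, against 61.6, 62.7 and 59.0 beyond 300 kb. The very close regions were the widest as joined regions, with a median of 717 bp against 543 bp beyond 300 kb.

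**Figure D2:**
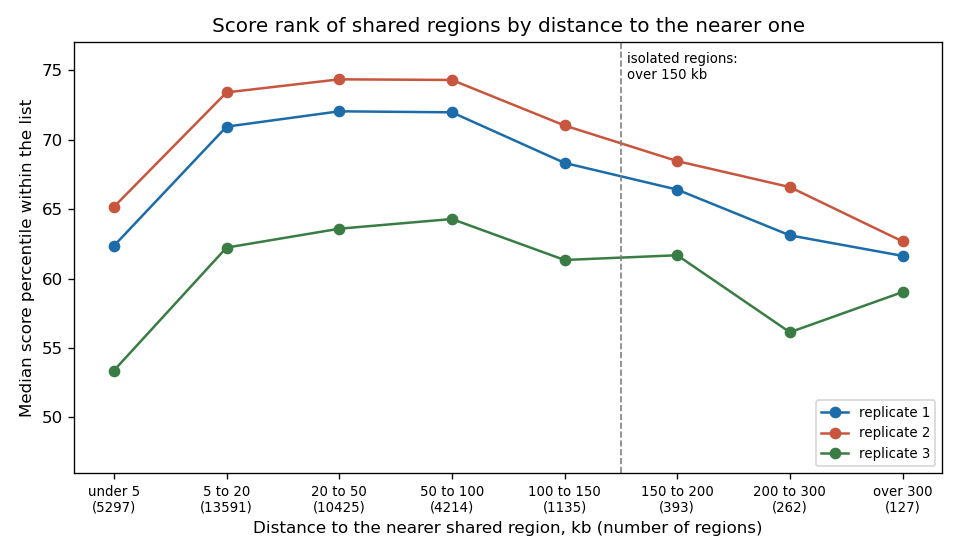
Median score percentile within each animal's list (vertical axis, not from 0) for shared regions grouped by the distance to the nearer shared region in kb, with the number of regions in brackets and 1 line per animal. Right of the dashed line are the isolated regions. The line of replicate 2 goes from 74.3 at 50 to 100 kb to 62.7 beyond 300 kb, and that of replicate 3 lies lowest throughout.

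The distance of 150 kb marked no step in these values. The 107 regions whose nearer shared region lay at 150 to 160 kb had median percentiles of 65.6, 66.7 and 62.4 in replicates 1, 2 and 3. The 151 regions at 140 to 150 kb, just outside, had 64.7, 70.6 and 58.3. Median peak widths were 554, 549 and 368 bp just inside and 537, 569 and 355 bp just outside. The member nearest to the threshold was chr2:144992574-144994223, with a shared region 150.347 kb away, and the nearest region outside it was chr16:51759097-51760042, at 149.997 kb. The next members were chr10:101621193-101622003 at 150.485 kb and chr5:113210691-113211166 at 150.821 kb. The next regions outside were chr12:34586174-34586849 at 149.985 kb and chr13:55050176-55051240 at 149.964 kb.

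Isolated regions lay on all 19 autosomes, but unequally. Chromosome 7 had the most, 70, which were 6.52% of its eligible shared regions, followed by chromosome 9 with 63 (4.87%). Chromosomes 17 and 16 had 37 and 39, or 3.45% and 3.44%, and chromosome 5 had 62 (3.35%). The lowest shares were those of chromosome 18, with 11 (0.619%), and chromosome 10, with 26 (1.05%). The order follows in part from the rule: chromosome 7 had 7.21 shared regions per Mb between its outer peaks and chromosome 18 had 20.3, and fewer regions leave longer gaps. The share of chromosome 7 was 3.02% when replicate 3 was left out, a setting that left 505 isolated regions on all autosomes, against 782. The share over all autosomes was not calculated there, so this value does not show whether chromosome 7 stood out less. Per 10 Mb, chromosome 9 held 5.21 isolated regions, chromosome 7 held 4.69 and chromosome 18 held 1.25.

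**Figure D3:**
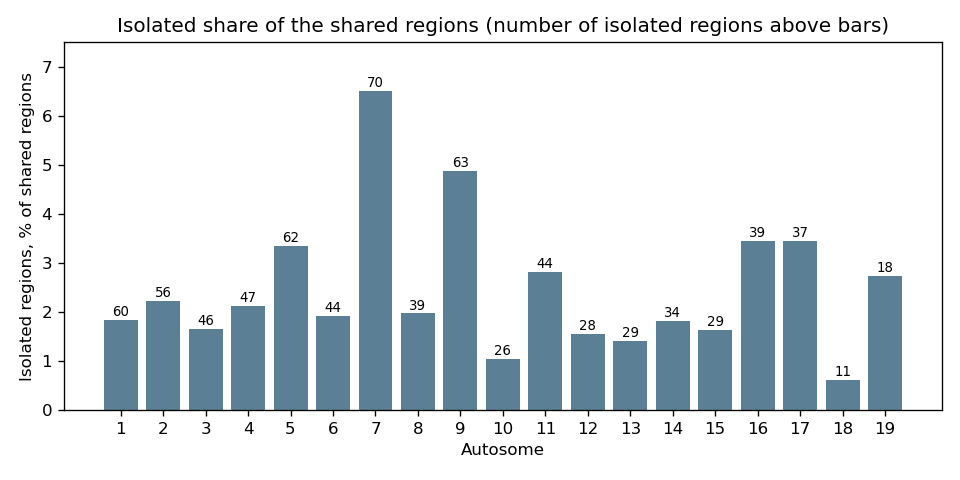
Isolated regions as a percentage of the eligible shared regions of each autosome, with their number above each bar. Chromosomes 7 and 9 stand highest, at 6.52% and 4.87%, and chromosome 18 lowest, at 0.619%.

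The lower rank of isolated regions was frequent over chromosomes in 2 of the 3 animals. Their median percentile was below that of the other shared regions on 18 of 19 autosomes in replicate 1, on 15 in replicate 2 and on 10 in replicate 3, and on 9 autosomes in all 3 animals. Narrower peaks were more general, on 19, 18 and 16 autosomes, and on 15 in all 3 animals. By the mean over animals, -15.3 points, the isolated regions of chromosome 13 lay furthest below, with -13.2, -16.0 and -16.8 points in replicates 1, 2 and 3, although in each single animal another autosome lay lower. Chromosome 12 went the other way in all 3 animals: its 28 isolated regions had higher median percentiles than its other shared regions by 3.80, 8.32 and 15.6 points. The mean over animals was also above 0 on chromosomes 18, 6 and 3, at 2.97, 2.74 and 0.298 points, with replicate 1 below 0 on each. Chromosomes 13 and 12 were singled out after their values were seen, and each of their values rests on under 30 isolated regions.

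The surroundings were sparse beyond the distance that the rule fixed. Between 150 kb and 1 Mb from their edges, both sides together, isolated regions had a median of 17 shared regions and the other shared regions 29. The middle 80% of the isolated regions had 7 to 31, and that of the others 15 to 44, so the groups overlapped. In this zone there were 1.07 shared regions per 100 kb around isolated regions and 1.73 around the others. At 4 isolated regions there was no shared region up to 1 Mb on either side. The label of sparse chromatin did not hold for all: 104 isolated regions (13.3%) had at least 29 shared regions in this zone, the median of the others. Those 104 had median percentiles of 64.2, 63.4 and 56.1 in replicates 1, 2 and 3, and the remaining 678 had 64.3, 66.8 and 59.4.

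Distances to the nearer shared region had a median of 199 kb, and 80% of them were between 157 and 362 kb, with a maximum of 1515 kb. To the farther side the median was 332 kb. Some isolated regions followed each other in the order of shared regions. On both sides of 426 (54.5%) the next shared region was not isolated, while 222 formed 111 pairs of neighbours and 134 stood in runs of 3 to 6. The rule favours such runs, because the shared region next to an isolated one already has a gap over 150 kb on that side. Whether runs were more frequent than this alone would give was not tested. The longest runs had 6 members each, on chromosome 6 over 1505 kb and on chromosome 5 over 1291 kb.

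The run on chromosome 6, from 67961773 to 69466657, was mixed in strength. Its strongest member, chr6:69466234-69466657, had percentiles of 75.3, 76.9 and 73.8 in replicates 1, 2 and 3. The weakest, chr6:68618375-68618839, had 25.9, 37.2 and 23.1. The first member, chr6:67961773-67962134, ranked at 41.8 and 21.6 in replicates 1 and 2 and at 73.8 in replicate 3. Its neighbour chr6:68114821-68115427 had 42.7, 11.4 and 64.3, so that replicate 3 was highest in both. The other members, chr6:68289783-68290414 and chr6:68861238-68861680, had mean percentiles of 70.2 and 39.0. Over the whole run there were 9 regions held by 1 or 2 animals.

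Peaks that were not found in all animals were also fewer around isolated regions. Within 150 kb of its edges, an isolated region had a mean of 3.72 regions held by 1 or 2 animals, 2.30 held by 1 and 1.42 held by 2, while the other shared regions had 7.35, 4.27 and 3.08. Counting for each animal the regions that it held, the means around isolated regions were 1.91, 2.34 and 0.899 in replicates 1, 2 and 3, against 3.99, 4.92 and 1.52 around the others. The ratio was 0.479, 0.476 and 0.592, with a mean of 0.516 ± 0.066 (SD, n = 3). This count is tied to the rule, because a neighbour that 1 animal lacks is what leaves a region isolated, so it was not tested. Without replicate 3, the mean per animal was 0.798 around isolated regions, against 1.72 with all lists, and the ratio was 0.387. The lower density went on past the rule's distance: from 150 kb to 1 Mb, regions held by 1 animal stood at 0.935 per 100 kb around isolated regions and 1.25 around the others, and regions held by 2 animals at 0.618 and 0.880.

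**Figure D4:**
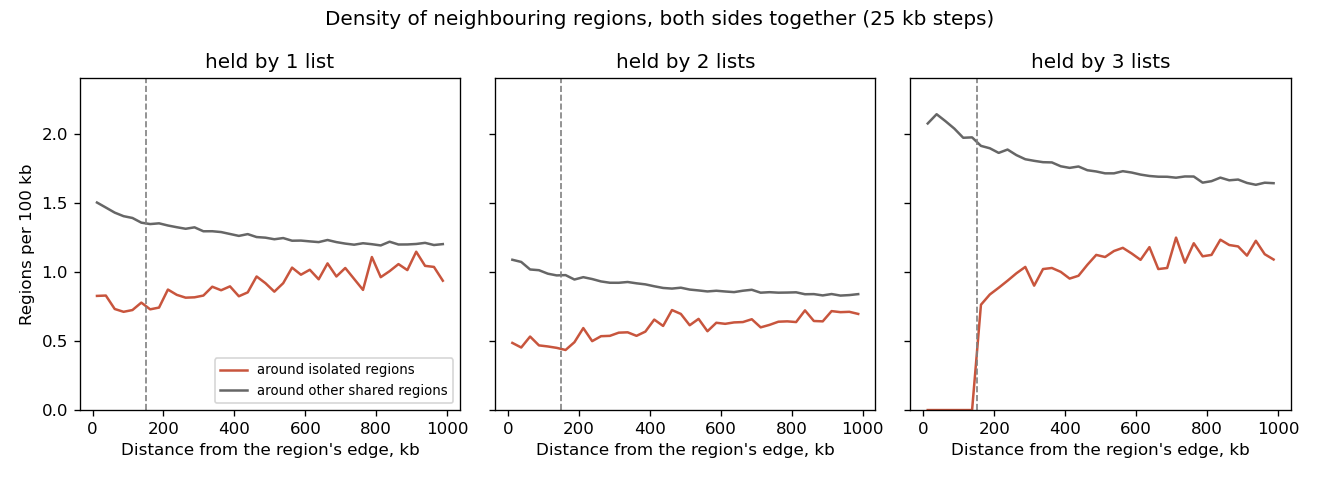
Regions per 100 kb (vertical axis) by distance in kb from the edge of isolated regions (red) and other shared regions (grey), for regions held by 1, 2 and all 3 animals from left to right. The rule sets the red line of the right panel to 0 up to the dashed line at 150 kb, and in all panels the red line stays below the grey one out to 1 Mb.

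The pattern of animals among these neighbours was near that of the whole autosomes, with 1 shift. Regions of replicates 1 and 2 without replicate 3 made up 27.4% of the neighbours of isolated regions and 30.9% of all autosomal regions held by 1 or 2 animals. Regions of replicate 3 alone made up 13.3% and 11.5%. Regions of replicate 2 alone made up 28.9% in both. The neighbours ranked low in their lists, with median percentiles of 23.8, 25.7 and 20.4 in replicates 1, 2 and 3, as did the regions of 1 or 2 animals elsewhere, with 25.4, 26.7 and 19.8. The strongest neighbour reached percentile 88.8 in replicate 1, 84.1 in replicate 2 and 79.8 in replicate 3.

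Replicate 3, which had the fewest and narrowest peaks of the 3 lists, decided the isolation of many regions. Of the 782 isolated regions, 422 (54.0%) had within 150 kb a region that replicates 1 and 2 shared and replicate 3 lacked. Such neighbours were less frequent than around the other shared regions, of which 84.5% had one. With replicate 3 left out, 505 regions were isolated, and only 360 of the 782 (46.04%) were among them. The number was 681 without replicate 1 and 734 without replicate 2, with 621 and 666 of the 782 retained. The mean percentile difference without replicate 3 was -7.23, against -4.54 with all lists, but both the members and the animals averaged differ between these values. For the remaining animals it was -9.39 and -5.07, against -5.65 and -5.74 with all lists, so it moved in opposite directions in the 2 animals. Fewer lists to match leave more shared regions by construction. Read depth is unknown, and its part in the list of replicate 3 was not tested.

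No region of any animal lay within 150 kb of 71 isolated regions (9.08%), against 377 other shared regions (1.09%) that had shared regions but no others nearby. The solitary 71 had median percentiles of 63.7, 63.6 and 60.2, near the 64.3, 66.7 and 58.6 of the other isolated regions, and median widths of 507, 479 and 336 bp against 526, 531 and 369 bp. Chromosome 7 held 12 of them and chromosome 9 held 9. At the other end, 46 isolated regions (5.88%) had 10 or more regions held by 1 or 2 animals within 150 kb, against 26.8% of the other shared regions.

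The strongest solitary region was chr9:19426018-19427015, 998 bp wide, at percentile 99.1 in replicate 1, 98.9 in replicate 2 and 99.1 in replicate 3. Its scores were 1205, 1340 and 838, and the nearest shared regions lay 842 kb before it and 762 kb after it. It was followed by chr12:117285350-117286629, at 97.6, 97.7 and 95.5, with the nearest shared region on its farther side 2622 kb away. The region chr14:95755800-95756742 had percentiles of 96.9, 95.8 and 93.0, and chr16:79718309-79719287 had 94.6, 95.9 and 94.7. Further solitary regions on chromosome 12, chr12:63307862-63308728 and chr12:94520067-94520822, had mean percentiles of 94.3 and 92.6. The percentiles of each of the 6 lay within 4 points between animals, a spread that choosing them for high rank keeps small.

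The strongest isolated region overall was chr17:39979761-39985964. It was the widest, with peaks of 5955, 6204 and 5916 bp in replicates 1, 2 and 3, and scores of 2430, 1960 and 1358 put it above percentile 99.8 in each list. The nearest shared regions lay 2572 kb before and 988 kb after it, and 1 region held by a single animal was within 150 kb. Its peaks nearly coincided, with 95.4% of the joined length covered in all animals. Whether it lies in repeated sequence was not tested, so its top rank, its width and the near coincidence of its peaks cannot be read as open chromatin alone.

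The next in rank were less extreme in width. The region chr12:119539102-119541460 had peaks of 2046, 2359 and 1884 bp at mean percentile 99.8. It was the first of 3 isolated regions in a row. The region chr5:18731835-18734227 had mean percentile 99.1 and differed more in width, with 1419, 2393 and 1155 bp, and 8 regions of 1 or 2 animals lay near it. The region chr16:42874943-42876707 had 1749, 1740 and 1584 bp at mean percentile 98.9. The region chr14:122933023-122934200 stood at 98.4, chr1:179912961-179914283 at 98.3 and chr3:30691502-30693142 at 98.1, with joined widths of 1178, 1323 and 1641 bp. Of the 8 strongest isolated regions, 6 were wider than 1 kb and under 2.4 kb, and the solitary region of chromosome 9 was under 1 kb.

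The most distant regions were of every strength. The farthest from any other shared region was chr7:11080190-11081084, with 3827 kb to the shared region before it and 1515 kb to the one after, no region of any animal within 150 kb, and percentiles of 91.5, 88.6 and 93.7. The region chr16:7081027-7081701 had 1371 and 1389 kb to its neighbours but 10 regions of 1 or 2 animals within 150 kb, and its percentiles were 78.1, 85.8 and 29.5. The region chr7:142728875-142729724 was similar, with 14 such regions and percentiles of 59.5, 75.3 and 4.67. Both ranked far lower in replicate 3 than in the other two.

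The region chr4:146034498-146034955 had no region of any animal within 150 kb, lay 1140 and 1078 kb from its shared neighbours and stood at 42.3, 71.5 and 53.9. The region chr5:133018885-133019725 had 862 kb on its nearer side and percentiles of 77.3, 66.6 and 77.8. The region chr7:101507947-101508352, with 848 kb, was weak in all animals at 21.6, 13.5 and 5.64. The region chr7:111501715-111502198, with 827 kb, stood at 27.2, 51.1 and 35.3. Of the 8 most distant isolated regions, 4 were on chromosome 7, and the widest region on chromosome 17 was also among them.

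The weakest isolated regions were near the lowest score of 50 that the lists report. The lowest was chr11:82049025-82049483, with scores of 55.7, 56.9 and 53.5 in replicates 1, 2 and 3, and it was the only isolated region in the lowest-scoring 10% of all 3 lists. The others were chr10:91349139-91349605, chr1:190282040-190282413 and chr4:127769183-127769576, with mean percentiles of 10.4, 11.3 and 11.9. Their joined widths were 374 to 467 bp, below the median of the isolated regions.

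The regions with the most neighbours held by 1 or 2 animals were on chromosomes 1, 2 and 6. Around chr1:87444608-87445353 there were 19, of which 15 were held by 1 animal, and the nearest shared region on its farther side was 2102 kb away. It ranked at 32.3, 48.9 and 34.7. Around chr1:158648448-158649582, chr2:102660467-102661068 and chr6:115283844-115284183 there were 16 each. These had mean percentiles of 93.5, 48.1 and 26.4, so strong and weak regions both had many such neighbours.

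Scores of isolated regions were less closely ordered between animals than those of other shared regions. As a description across 782 regions, which share libraries and are not replicates, the Spearman correlation of scores was 0.84 for the pair of replicates 1 and 2. It was 0.72 for replicates 1 and 3, and 0.70 for replicates 2 and 3. In the other shared regions it was 0.88, 0.79 and 0.78. Among regions in the upper 50% of both lists of a pair, it was 0.85, 0.77 and 0.74 against 0.87, 0.81 and 0.80, so the gap was smaller there. The median spread between the highest and the lowest percentile of a region was 18.9 points in isolated regions and 16.0 in the others.

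**Figure D5:**
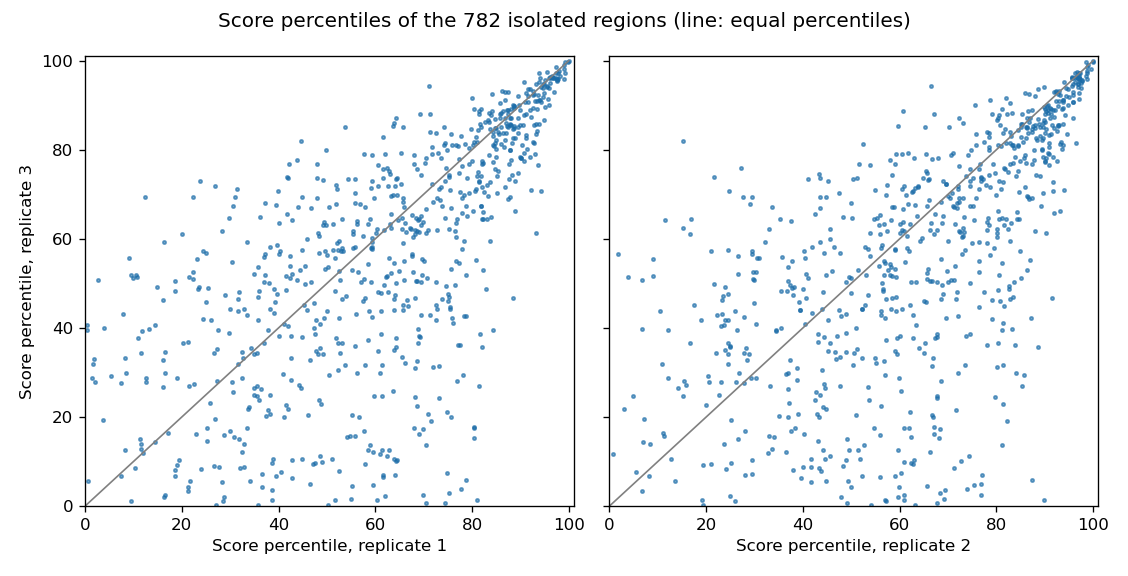
Score percentile of each of the 782 isolated regions in replicate 3 (vertical axis) against replicate 1 (left) and replicate 2 (right), with a line of equal percentiles. The points close up at the top right and spread below. Those far under the line ranked much lower in replicate 3 than in the animal on the horizontal axis, and some of them were low in the remaining animal too.

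Replicate 3 had the lowest percentile in 392 isolated regions (50.1%), and in 58.9% of the other shared regions. In 94 isolated regions (12.02%) replicate 3 was in its lower 50% while both other animals were in their upper 50%, and in 40 (5.12%) it was the reverse. In the other shared regions these shares were 13.6% and 2.69%. The largest spread was at chr7:150482209-150482849, with percentiles of 81.0, 89.9 and 1.38 in replicates 1, 2 and 3. At chr16:92707775-92708457 they were 78.8, 87.3 and 5.92, and at chr6:79443510-79444295 they were 77.8, 73.9 and 3.76. At chr14:30534744-30535980 they were 69.8, 76.9 and 2.45, and no base was covered by the highest peak of all 3 animals. In all 4 the low animal was replicate 3, with scores of 50.6 to 53.1.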

How the data were processed

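Peak lists of 3 ATAC-seq libraries, 1 per animal, were analysed. The submitters' processing notes name Bowtie2 and the build mm9. The peak names in the files are those of MACS; for its settings, for duplicate handling and for any shift of the Tn5 cut, sources used here give nothing. No unit is stated for the deposited score, which was only ranked within a list. Start and end of each peak are in bp as deposited, printed here counted from 1. Read depth is unknown, so counting intervals are absent, and precision is limited by having 3 animals. Distances run between facing edges of regions. For each list, the highest peak in a region gave its width and score. Medians per animal were compared, with an exact two-sided sign-flip permutation test over the 3 animals. Regions are not replicates. The regions, lists and rules were chosen with earlier results of these data known. Regions named were the 8 strongest, 8 most distant, 4 weakest, 4 with most partial neighbours, 4 with the largest spread between lists, the 6 strongest with no peak within 150 kb, 3 on each side of the threshold and the longest run. The steps were tested on simulated lists of 1 chromosome, with peaks of fixed width and neighbours held by 1 list. Regions that only 1 list lacks, several peaks of a list in a region and gaps near 150 kb were not simulated. Alternatives were other isolation distances, midpoints, 50% reciprocal overlap, the highest-scoring 50%, equal peak numbers, leaving out each replicate, comparisons within chromosomes, and others named in the closing section. Gene, GC and motif steps were not run, as no mm9 genome was used. Software was pandas 2.3.3, numpy 2.4.6 and matplotlib 3.10.9 under Python 3.11.15.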

Additional observations from a re-analysis of the deposited data

Results flagged for a closer look

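The X chromosome was outside the rule, which keeps autosomes only. Applied there, the same distance gave 98 isolated regions of 1315 eligible shared regions (7.45%), a share above that of any autosome. Their median percentiles were 73.0, 71.8 and 67.8 in replicates 1, 2 and 3, against 73.5, 74.5 and 65.7 for the other shared regions of the X chromosome, so the direction in replicate 3 was opposite to that in the other two animals. Median widths were 563, 546 and 394.5 bp against 598, 612 and 399 bp. This count was singled out because it comes from data outside the comparisons above, and it has no control to be set against. No number of shared regions per Mb is given for the X chromosome, and fewer regions leave longer gaps there too.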

How the results depend on the processing

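None of the 77 alternative values for 7 quantities was a change of direction, but not all of them could be. The number of isolated regions, their share on chromosome 7 and the number of neighbours per animal have no direction to change. The statement therefore has content only for the percentile difference, the width ratio, the neighbour ratio and the score correlation. A value counted as unmoved when it differed by less than the SD over animals, or by less than 1.5 times for the number of isolated regions and their share on chromosome 7, which held for 53. With isolation at 100 kb, 1917 regions qualified (13.7% of the eligible regions of chromosome 7), the percentile difference was -2.35 and the ratio of neighbours held by 1 or 2 animals was 0.608. At 200 kb, 389 regions qualified, with a neighbour ratio of 0.433. At 300 kb, 127 qualified (2.05% on chromosome 7), with a percentile difference of -6.73, a width ratio of 0.819 and a neighbour ratio of 0.370. A longer distance can only lower the number. In the highest-scoring 50% of each list, 1509 regions were isolated, with 15.8% of the eligible regions of chromosome 7 and a neighbour ratio of 0.638. Fewer peaks leave longer gaps by construction. The shares on chromosome 7 are all of its eligible regions, and the share over all autosomes was not calculated for the alternatives. They do not show whether chromosome 7 stood out more or less. Ranking among shared regions only gave a percentile difference of -6.60, and comparing widths at like score gave a ratio of 0.925. Neighbours per isolated region and animal, 1.72 within 150 kb, were 0.589 within 50 kb and 0.255 for those above their list's median score, both lower by construction. The score correlation of a pair, isolated minus other shared regions, differed by -0.066 on average, and by -0.040 in the upper 50% of both lists. Leaving out 1 replicate gave 505 to 734 isolated regions, 3.02% to 6.66% on chromosome 7, a percentile difference of -7.23 to -4.10, 0.798 to 1.32 neighbours and a neighbour ratio of 0.387 to 0.525, with replicate 3 left out at the first end of each range. Values without chromosome 7, without other shared regions closer than 5 kb, for the neighbour ratio, for the correlation and for the share on chromosome 7 were chosen after the data were seen. The alternatives for promoters and GC content were not run. No paired analysis was possible because all samples belong to 1 group. Absence from a list does not mean closed chromatin.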

Other observations

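Isolation of single regions can be set beside that of small groups, cut wherever the distance between shared regions exceeded 150 kb. Leaving out the first and the last group of each chromosome, there were 512 groups of 2 shared regions, 321 of 3, 248 of 4 and 171 of 5, beside the 782 single regions and 1536 larger groups. The median over groups of the mean percentile was 60.6 for single regions, 60.7 for groups of 2, 61.7 for groups of 3, 65.4 for groups of 4, 66.2 for groups of 5 and 65.9 for those over 5. The width of the joined regions was also taken once per group, and its median over groups did not follow group size evenly. It was 599.5 bp for single regions, 653 bp for groups of 2 and 613 bp for groups of 3. For groups of 4 it was 665 bp, for groups of 5 it was 667 bp and for larger ones 695 bp. A width taken from 2 regions and one taken from 3 are not the same measure. The unevenness can therefore come from the measure and is not read as a difference between regions. In groups of 2 the regions lay a median of 43.2 kb apart, and 68 groups (13.3%) had them within 10 kb. The median distance between all neighbouring shared regions was 34.8 kb. These groupings were chosen after the data were seen and were not tested.

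Among the isolated regions themselves, the 261 most distant ones, with a nearer shared region at 234 kb or more, had a mean of 2.85 regions of 1 or 2 animals within 150 kb, against 4.54 for the 261 least distant. Of the most distant, 41 had none, against 11 of the least distant.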
